A study of Mus musculus with 2 samples.

Results

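The keratin genes are described here in 2 rhabdoid tumors of the mouse, one labelled intracranial and one labelled extracranial. Members were taken by name: every protein-coding gene of the count table whose mouse symbol is Krt followed by a digit, which gave 53 genes of the 55416 in the table and of the 21928 that were protein-coding. The family itself was chosen with the values of these 2 libraries known, since keratins stood among the genes farthest from an equal ratio between them. Differences between the libraries are therefore given as a description, with no test. Both tumors came from Dppa3-cre::Smarcb1 Fl/+ mice on a C57BL/6 background, in which Cre is expressed from the locus of Dppa3, a gene of primordial germ cells, and 1 of the alleles of Smarcb1, a subunit of the SWI/SNF chromatin remodeler, is floxed. Both tumors were classified as MYC, a molecular subgroup of rhabdoid tumor, and differed in place: the intracranial tumor was at the trigeminal nerve and the extracranial tumor was facial and maxillar. No mouse without a tumor, no normal tissue and no second tumor of either place is among the samples, and the age and sex of the mice are not given in the sources used here. With 1 library per place, every value compares the 2 libraries and not the places, and no spread between replicates can be given. The place of each library is taken from its label, and the match of label to library was not tested.

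Keratins are the intermediate filament proteins of epithelial cells. A filament is built from pairs, each made of an acidic type I and a basic type II keratin, so an epithelium makes members of both types, and the pair made differs with the kind of epithelium and the layer. Basal cells of stratified epithelia make Krt5 and Krt14, the layers above them make Krt1 and Krt10 in skin or Krt4 and Krt13 in mucosa, simple epithelia make Krt8 and Krt18, and hair and its root sheath use sets of their own. Rhabdoid tumors are malignant tumors that in most cases have lost SMARCB1, and in which staining for keratins and for vimentin is part of routine pathology.

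Poly(A) RNA of each tumor was sequenced with a directional kit. The library labelled intracranial held 34545846 counts over 29670 detected genes and the library labelled extracranial 26915696 counts over 27252 genes. Levels are CPM, the counts of a gene scaled to a common library size, with library sizes from TMM, which moved the totals by factors of 1.006 and 0.994. A floor of 3 counts corresponded to 0.0863 CPM in the library labelled intracranial and to 0.112 CPM in the library labelled extracranial, and a count of 3 or fewer was treated as not distinguishable from 0 at this depth. Smarcb1, the targeted gene, had 365 counts (10.5 CPM) in the library labelled intracranial and 530 (19.8 CPM) in the library labelled extracranial, so transcripts of the gene were present in both pieces of tissue.

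The sequence just before the start of 4 members is shown first, because they frame the range of the family in the library labelled intracranial: Krt13, its most abundant keratin, Krt14 and Krt5, the basal pair, and Krt9, the keratin of palms and soles, which lies next to Krt14 on the chromosome and had no count. Each run holds the 250 bases before an annotated start, 5′ to 3′ in the direction of transcription, from RefSeq on GRCm38.p6. Where a gene had several starts, the first listed was used, here and for the shares of promoters below. Whether that start is the one used in these tumors was not tested, so a run may lie within a longer form of its gene. They lie on the minus strand at chr11:100121567-100121816 for Krt13, chr11:100206031-100206280 for Krt14, chr15:101712906-101713155 for Krt5 and chr11:100193247-100193496 for Krt9. Capitals mark the letters of 3 motifs: TGANTCA, the form bound by AP-1 factors, and CCACCC, the form bound by Krüppel-like factors, both on either strand, and ATAAAAGG on the sense strand.
Krt13: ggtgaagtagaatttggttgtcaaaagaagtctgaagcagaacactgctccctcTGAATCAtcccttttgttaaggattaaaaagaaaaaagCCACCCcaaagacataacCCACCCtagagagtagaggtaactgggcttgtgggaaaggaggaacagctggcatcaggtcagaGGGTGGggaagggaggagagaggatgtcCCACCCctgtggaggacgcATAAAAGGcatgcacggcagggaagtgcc
Krt14: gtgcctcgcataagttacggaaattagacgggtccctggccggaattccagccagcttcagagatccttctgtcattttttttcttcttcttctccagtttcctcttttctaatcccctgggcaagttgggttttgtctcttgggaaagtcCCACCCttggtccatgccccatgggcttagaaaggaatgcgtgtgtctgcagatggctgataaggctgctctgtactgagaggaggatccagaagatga
Krt5: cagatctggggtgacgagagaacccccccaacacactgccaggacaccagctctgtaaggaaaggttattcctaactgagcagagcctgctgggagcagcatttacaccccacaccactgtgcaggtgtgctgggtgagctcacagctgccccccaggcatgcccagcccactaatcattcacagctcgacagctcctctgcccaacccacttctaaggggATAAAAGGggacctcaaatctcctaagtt
Krt9: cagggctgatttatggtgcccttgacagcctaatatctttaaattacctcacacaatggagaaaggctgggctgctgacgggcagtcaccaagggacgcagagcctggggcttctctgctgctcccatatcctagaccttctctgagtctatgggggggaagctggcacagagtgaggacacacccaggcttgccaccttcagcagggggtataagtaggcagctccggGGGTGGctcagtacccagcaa

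In Krt13, TGAATCA began 196 bases before the start, CCACCC began 158, 140 and 48 bases before it, and the reverse form GGGTGG 76 bases before it. Krt14 held CCACCC once, 99 bases before the start, and Krt9 held GGGTGG 21 bases before it. ATAAAAGG began 29 bases before the start in both Krt13 and Krt5. This last motif was added after these 4 sequences were seen, and it can overlap TATAAA. The promoter table held 36 of the 53 keratins. It lacked Krt4, Krt6a, Krt6b, Krt16 and Krt17, which were among the most abundant keratins of the library labelled intracranial, so the shares below leave them out. TATAAA on the sense strand was found in 15 of the 36 (41.7%) against 8.12% of 27025 promoters of all genes. It was in 3 of the 14 keratins with 100 or more intracranial counts (21.4%) and in 9 of the 15 that were at or under the floor in both libraries (60.0%). CCACCC was in 13 of 36 keratin promoters (36.1%) against 27.7% of all, TGANTCA in 1 of 36 (2.78%) against 6.87%, and ATAAAAGG in 5 of 36 (13.9%) against 1.12%. These are matches of letters in a window and not sites shown to be bound.

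Nearly all keratin transcripts of this series were in the library labelled intracranial. The 53 genes summed to 919300 counts there, which is 2.66% of the library, with a 95% exact binomial (Clopper-Pearson) interval of 2.66 to 2.67%. They summed to 286 counts in the library labelled extracranial, or 0.00106% (0.000943 to 0.00119%). The keratin sum was 2475-fold lower in the library labelled extracranial, with a 95% interval of 2205 to 2789 from counting. Reads were not marked with molecular identifiers, so all such intervals cover counting error only. In bulk tissue, fewer cells of a type and less RNA per cell cannot be told apart.

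Of the 53 members, 33 had more than 3 intracranial counts and 10 had more than 3 extracranial counts. There were 34 above this floor in either library, 19 at or under it in both and 13 with no count in either. A member was set against the other library only with 10 or more counts over both, and was called when the whole 95% interval of its ratio lay beyond 4-fold. Of the 28 members with that many counts, 24 were called lower in the library labelled extracranial, 0 were called higher and 4 were not called. Over all genes with 10 or more counts, 5.41% were called lower and 1.78% higher. Among protein-coding genes these shares were 6.83% and 2.11%. Since the family was chosen with this contrast known, and most members passed the minimum only through the library labelled intracranial, nothing is read from the count. Just inside the limit was Krt80, at 6.82-fold with an interval from 5.63, and just outside it was Krt7, at 5.78-fold with an interval from 3.98. With a count of 0 in the library labelled extracranial, 21 intracranial counts were the fewest that any gene was called with. The median log2 ratio was -5.77 over the 34 members above the floor, against -0.04 over 24490 genes of the table chosen by the same floor, with a count of 0 set at 3.

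**Figure D1:**
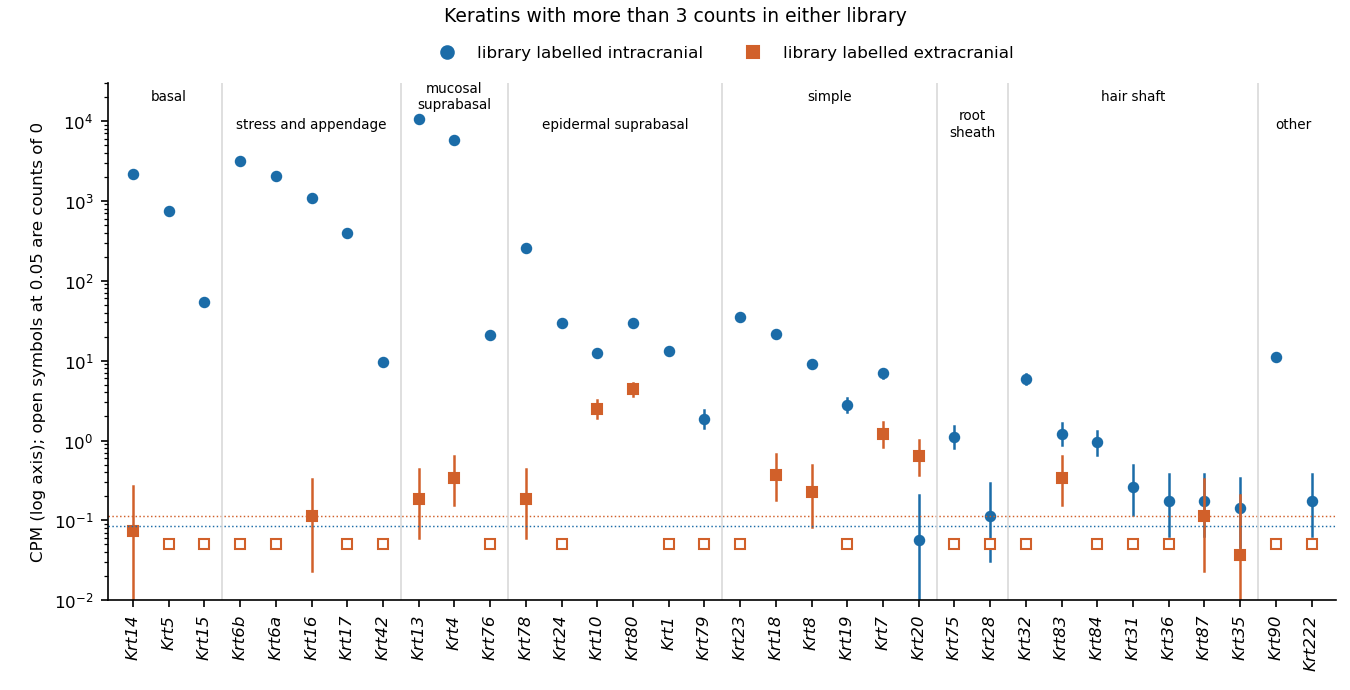
CPM on a log axis of the 34 keratins above 3 counts in either library, by group, for the library labelled intracranial (blue circles) and the library labelled extracranial (orange squares). Vertical lines are 95% Clopper-Pearson intervals, clipped at the bottom of the axis, open symbols are counts of 0, and dotted lines mark the floor of 3 counts in each library. Krt13 reached 10554 CPM in blue, while the highest orange square is Krt80 at 4.37 CPM.

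The mucosal suprabasal keratins held the largest part of the family. Krt13, the type I keratin of the layers above the basal one in mouth and oesophagus, had 366709 intracranial and 5 extracranial counts. It ranked 2 among all genes by counts and 9 per kilobase of exon in the library labelled intracranial, and it alone made up 39.9% of the keratin counts there. Krt4, its type II partner, had 199691 and 9 counts. Together both genes gave 61.6% of the intracranial keratin counts. The log2 ratio of extracranial to intracranial was -15.79 for Krt13 (95% interval -17.41 to -14.56) and -14.06 for Krt4 (-15.19 to -13.14). Krt76, a keratin of the palate and gum, was far less abundant, with 737 and 0 counts, and was at least 153-fold lower in the library labelled extracranial. A fold given as at least, for a gene with a count of 0, is the lower limit of its 95% interval from counting. All 3 members of the group were called, and their sum of 567137 and 14 counts was 61.7% of the intracranial keratin counts and 4.90% of the extracranial ones.

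The keratins of stress, wounds and skin appendages came next. Krt6b had 110939 and 0 counts, Krt6a 71591 and 0, Krt16 37992 and 3, Krt17 13596 and 0, and Krt42, a nail keratin of the mouse, 331 and 0. Stratified epithelia make Krt6a, Krt6b, Krt16 and Krt17 after injury and in some sites at rest, among them nail, hair follicle and oral mucosa. Krt6b was at least 23160-fold, Krt6a at least 14946-fold, Krt17 at least 2838-fold and Krt42 at least 68.7-fold lower in the library labelled extracranial. Krt16, with 3 extracranial counts, was 9753-fold lower (95% interval 3337 to 47295). All 5 were called, and they summed to 25.5% of the intracranial keratin counts. No member of the group was above the floor in the library labelled extracranial.

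The basal keratins gave 11.1% of the intracranial keratin counts. Krt14 had 74653 and 2 counts, Krt5 25883 and 0, and Krt15, a type I keratin of basal cells and of the stem cells of the hair follicle bulge, 1891 and 0. Krt14 was 28746-fold lower in the library labelled extracranial, with an interval of 7957 to 237371 that is wide because it rests on 2 counts. Krt5 was at least 5403-fold and Krt15 at least 394-fold lower. Krt5 and Krt14, the pair that defines the basal layer, were thus at or under the floor in the library labelled extracranial, where the 95% intervals of their levels reached 0.270 CPM for Krt14 and 0.138 CPM for Krt5.

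Keratins of the suprabasal epidermis were present at much lower levels. Krt78 had 8897 and 5 counts, Krt80 1036 and 117, Krt24 1032 and 0, Krt1 457 and 0, Krt10 428 and 67, and Krt79, a keratin of the upper hair canal, 65 and 0. Krt2 and Krt9, which mark the upper layers of skin and the skin of palms and soles, had 0 counts in both libraries, and Krt77 had 1 and 0. In the library labelled intracranial, Krt1 and Krt10, the pair of keratinizing skin, reached 2.98 and 5.83 CPM per kilobase, against 2694 and 5796 for Krt4 and Krt13, the pair of mucosa. Krt78 was 1370-fold lower in the library labelled extracranial (587 to 4221), Krt24 at least 265-fold and Krt1 at least 117-fold lower. The group of 9 genes gave 1.30% of the intracranial keratin counts. It gave 66.1% of the extracranial ones, nearly all of them from Krt80 and Krt10. This share is that of the group as drawn here and not a measure of epidermis, since Krt80 is found in many epithelia. Krt1, the partner of Krt10, had 0 extracranial counts, as had Krt2, Krt9 and Krt77.

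Krt80 and Krt10 were the most abundant keratins of the library labelled extracranial. Krt80, a type II keratin found in many epithelia, had 40.9% of its 286 keratin counts, and with Krt10 the share was 64.3%. Krt80 was at 29.8 CPM in the library labelled intracranial and at 4.37 CPM (3.62 to 5.24) in the library labelled extracranial, a 6.82-fold difference that was called (5.63 to 8.33). Krt10 was at 12.3 and at 2.50 CPM (1.94 to 3.18), a 4.92-fold difference with an interval of 3.80 to 6.46, and was not called. Gm35853, annotated antisense to Krt80, had 33 and 203 counts and was called higher in the library labelled extracranial. It shares 2.73% of the read-length windows of Krt80. The kit kept the strand of each transcript, but the strand setting of the counting is not given in the sources used here, and the part of Gm35853 in the Krt80 counts was not tested.

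**Figure D2:**
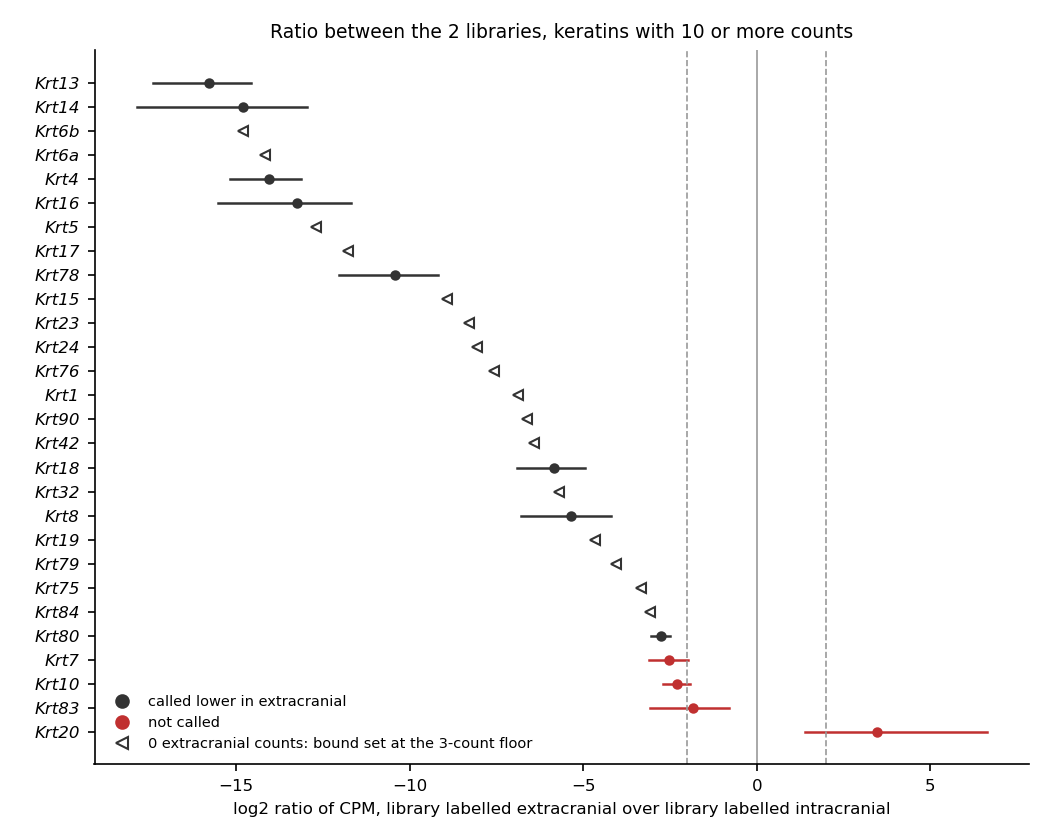
Log2 ratio of CPM, library labelled extracranial over library labelled intracranial, for the 28 keratins with 10 or more counts over both. Points carry 95% intervals from counting, and open triangles are ratios with 0 extracranial counts set at 3. Dashed lines mark 4-fold, black is called lower and red is not called. The ratios run from -15.79 for Krt13 to 3.46 for Krt20, the single point to the right of 0.

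The simple keratins were a small part of the family in the library labelled intracranial and the second largest group in the library labelled extracranial. Krt8 and Krt18, the pair of single-layered epithelia, had 315 and 6 and 745 and 10 counts. Krt19, made in ducts and in some basal cells, had 98 and 0, Krt23 1226 and 0, Krt7, a keratin of ducts, 240 and 32, and Krt20, which marks gut epithelium, umbrella cells of the bladder and Merkel cells, 2 and 17. Krt18 was 57.4-fold lower in the library labelled extracranial (31.0 to 120.1) and Krt8 40.4-fold lower (18.4 to 111.0). Krt23 was at least 255.6-fold and Krt19 at least 20.1-fold lower. These 4 were called. Krt7 was 5.78-fold lower (3.98 to 8.64) and was not called. Krt20 was the single keratin with more counts in the library labelled extracranial, 11.0-fold higher with an interval of 2.62 to 98.5, and was not called. The 6 simple keratins summed to 2626 and 65 counts, or 0.286% of the intracranial and 22.7% of the extracranial keratin counts. In the library labelled extracranial, Krt18 at 0.374 CPM (0.179 to 0.687) was above the floor by its whole interval, while the interval of Krt8, 0.224 CPM (0.0823 to 0.488), took in the floor of 0.112 CPM.

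Most keratins of hair and of its root sheath had few counts or none. Of the 8 root sheath members, Krt75, a keratin of the companion layer, had 39 and 0 counts and Krt28 had 4 and 0, while Krt25, Krt26, Krt27, Krt71, Krt72 and Krt73 had none in either library. Of the 15 members of the hair shaft and other hard keratins, Krt32, a hair cuticle keratin, had 203 and 0 counts, Krt83 42 and 9, Krt84 33 and 0, Krt31 9 and 0, Krt36 6 and 0, Krt87 6 and 3, and Krt35 5 and 1. The other members of this group had 3 counts or fewer in each library. Krt32 was at least 42.0-fold and Krt84 at least 6.51-fold lower in the library labelled extracranial, and these and Krt75 were called. Krt83 was 3.59-fold lower (1.72 to 8.40) and was not called. The 23 members of both groups summed to 356 and 13 counts. The keratin-associated proteins, which cross-link hair keratins, were also nearly silent: of 58 Krtap genes, 2 were above the floor in either library, Krtap3-3 with 82 and 0 counts and Krtap3-2 with 36 and 0. Outside these groups, Krt90 had 381 and 0 counts and was at least 79.2-fold lower in the library labelled extracranial. Krt222 had 6 and 0 counts, Krt12, the keratin of the cornea, had 2 and 0, and Krt88 had none.

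The spread of levels within the family was as wide as the difference between the libraries. The 8 keratins above 10000 intracranial counts (Krt13, Krt4, Krt6b, Krt14, Krt6a, Krt16, Krt5 and Krt17) held 98.0% of the keratin counts there, and 19 counts in the library labelled extracranial. The other 45 genes shared 18246 and 267 counts. Per kilobase of exon, the order in the library labelled intracranial was Krt13 at 5796, Krt4 at 2694, Krt6b at 1429, Krt14 at 1222, Krt6a at 852, Krt16 at 699, Krt5 at 339 and Krt17 at 252 CPM. Next came Krt78 at 74.5, Krt15 at 30.8, Krt23 at 22.5, Krt24 at 16.1 and Krt18 at 14.9 CPM per kilobase. In the library labelled extracranial, Krt10 led at 1.18 CPM per kilobase, followed by Krt80 at 0.684, Krt20 at 0.330, Krt18 at 0.260, Krt83 at 0.183, Krt7 at 0.170 and Krt4 at 0.158. Krt20, Krt83, Krt7 and Krt4 rest on 17, 9, 32 and 9 counts, so their order there was not resolved at this depth. The order also depended on the length used. Krt80 has 6393 exon bases but 1356 coding bases, against 2114 and 1683 in Krt10, and stood above Krt10 per coding base.

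Since filaments need equal numbers of both types of protein, the 2 types were compared as transcripts per length. The family has 28 type I members, of which 27 lie on chromosome 11 and Krt18 on chromosome 15, and 25 type II members, all on chromosome 15. In the library labelled intracranial, type I genes summed to 8070 and type II genes to 5417 CPM per kilobase, so type I gave 59.8%. In the library labelled extracranial the sums were 2.01 and 1.41 CPM per kilobase (58.7% type I), from 105 and 181 counts. On raw counts, type I gave 54.3 and 36.7%, and without Krt13 and Krt4 the shares per length were 45.5 and 60.3%. The near equality of both shares per length thus depended on the way of counting.

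Within the library labelled intracranial, the balance differed between groups. Type I was ahead 3.70-fold among basal, 2.14-fold among mucosal suprabasal, 6.95-fold among simple and 3.21-fold among hair shaft keratins. Type II was ahead 2.38-fold among the stress keratins, 3.77-fold in the suprabasal epidermal group and 4.85-fold in the root sheath, where 43 counts were found. By pair, the type I partner exceeded the type II partner in Krt14 to Krt5 (3.60), Krt13 to Krt4 (2.15), Krt18 to Krt8 (3.22) and Krt10 to Krt1 (1.96). It was lower in Krt16 to Krt6a (0.820) and in Krt17 to Krt6b (0.177). The ratio of Krt10 to Krt1 depends on the use of exon length. Krt1 has 4415 exon bases but 1911 coding bases, against 2114 and 1683 in Krt10. In the library labelled extracranial the ratio of Krt18 to Krt8 was 2.27 and that of Krt13 to Krt4 0.651, each from 10 counts or fewer per gene.

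**Figure D3:**
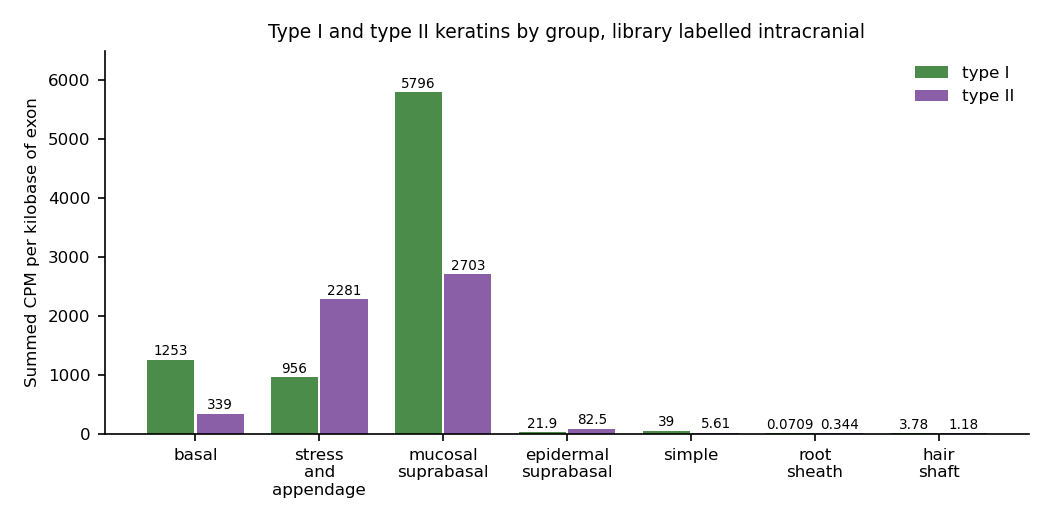
Summed CPM per kilobase of exon of type I (green) and type II (purple) keratins by group in the library labelled intracranial, on a linear axis from 0, with the value above each bar and no error bar, since there was 1 library. Type I stands above type II in the basal group (1253 to 339) and the mucosal suprabasal group (5796 to 2703), and below it in the stress and appendage group (956 to 2281).

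Abundant and silent keratins lay side by side in both gene clusters. On chromosome 11, Krt24 (1032 intracranial counts) was followed in the annotated order by Krt25, Krt26, Krt27 and Krt28, with 4 counts or fewer each, and then by Krt10 (428). Toward the other end, Krt13, Krt15 and Krt19 were followed by Krt9, with 0 counts, and then by Krt14, Krt16, Krt17 and Krt42. On chromosome 15, Krt6b, Krt6a and Krt5 were followed by Krt71, Krt72, Krt73 and Krt2, with 0 counts each, and then by Krt1 and, further on, Krt4. The nearest genes outside were expressed at like levels in both libraries: Smarce1 had 2616 and 2843 counts and Eif1 12132 and 8961 beside the cluster on chromosome 11, and Eif4b had 12408 and 11327 beside that on chromosome 15. At the other end of the latter, 6030408B16Rik had 8 and 1 counts. Gm5414 and Gm5478, which lie between Krt75 and Krt6b but are not named Krt, had 3512 and 0 and 5017 and 0 counts. They were at least 733-fold and 1047-fold lower in the library labelled extracranial.

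**Figure D4:**
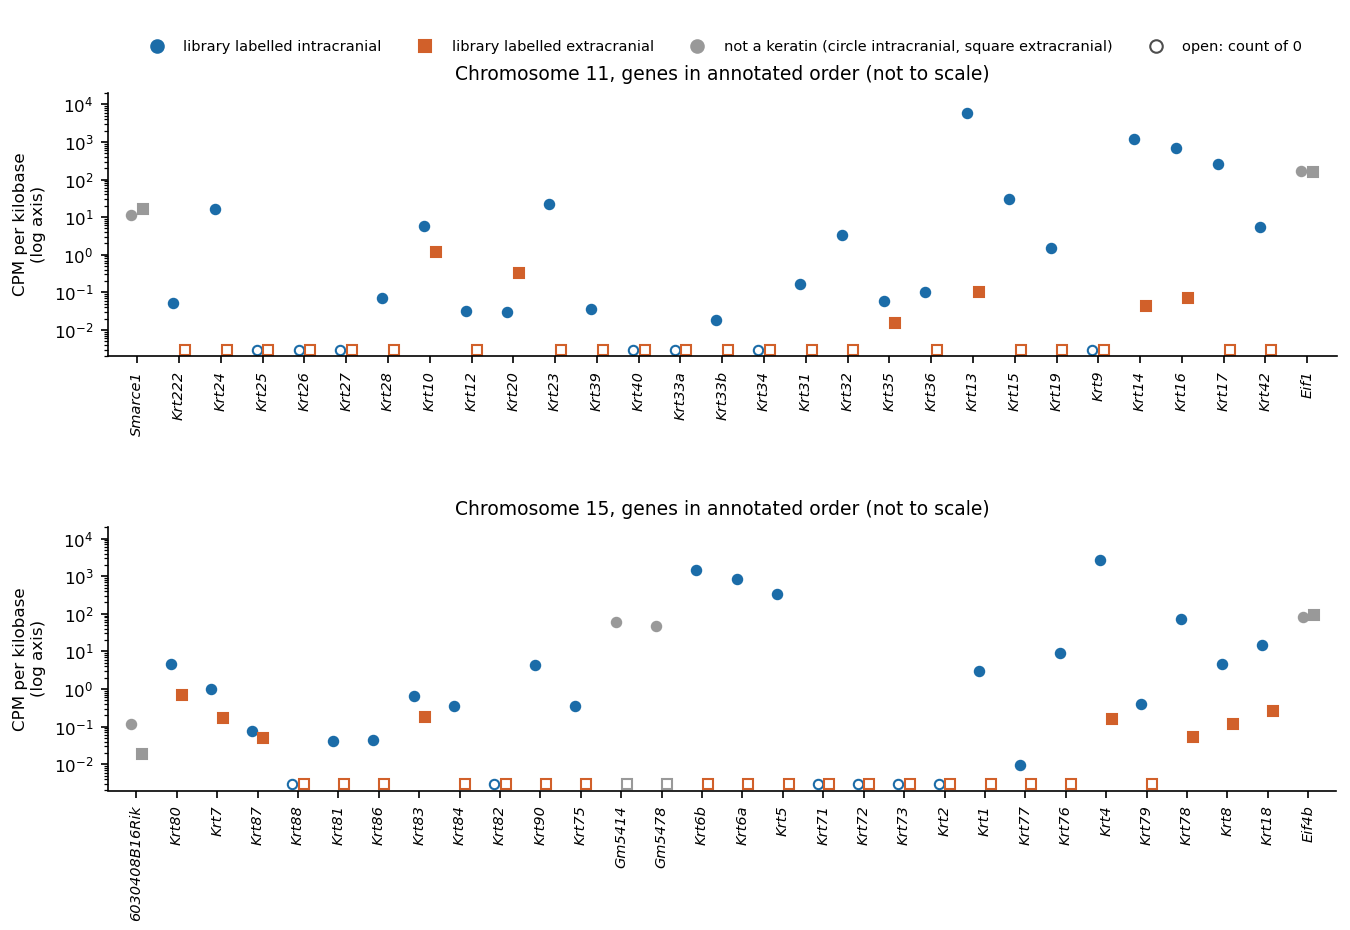
CPM per kilobase of exon on a log axis of the keratins in their annotated order on chromosomes 11 and 15, with the nearest outside gene at each end and Gm5414 and Gm5478 in grey; the spacing is not to scale and Krtap genes are left out. Circles are the library labelled intracranial, squares the library labelled extracranial, and open symbols counts of 0. Krt9, with both symbols open, stands between Krt19 and Krt14, while the grey flanking genes Smarce1, Eif1 and Eif4b have both symbols close together.

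Some keratins cannot be read apart with certainty. Transcripts were cut into windows of 72 bases, the read length, and 26 of the 53 members shared no window with another gene, among them Krt13, Krt4, Krt17, Krt18, Krt7, Krt20 and Krt23. More than 5% of windows were shared in 16 members. Krt6a shared 56.8% of its windows with other genes and 37.1% with Krt6b, and Krt6b shared 40.9% and, with Krt6a, 37.8%. Krt16 shared 29.5% of its windows with other genes and 22.6% with Gm11597 (8214 and 1 counts). Krt8 shared 24.2% with other genes and 22.6% with the pseudogene Krt8-ps (35 and 0 counts). Krt5 shared 8.33% and Krt14 6.27%. How reads that match several genes were counted is not given in the sources used here, so the levels of Krt6a, Krt6b, Krt16 and Krt8 and the split between Krt6a and Krt6b are uncertain. Krt6a and Krt6b summed to 182530 and 0 counts, or 19.9% of the intracranial keratin counts. This sum also depends on how reads that match both genes, or genes outside the pair, were counted. With all counts of a gene divided by its windows held by no other gene, type I gave 54.4% of intracranial and 50.3% of extracranial keratin transcripts. These shares assume that reads matching several genes were left out of the counts, which is not known. The windows came from the longest coding transcript of each gene.

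As a set, other intermediate filament genes did not show the difference seen for keratins, by summed level and median ratio. Vim, the filament of mesenchymal cells, had 156919 and 101372 counts, or 4516 and 3788 CPM, with a log2 ratio of -0.25. This list of 15 genes also holds the lamins and the filaments of muscle, glia and neurons. Of them, 1 was called lower in the library labelled extracranial and 1 higher, 12 were not called, and Bfsp2 had too few counts. Since 5.41% of all genes were called lower and 1.78% higher, nothing is read from these calls. The gene called lower was Synm, a filament protein of muscle (1593 and 111 counts, log2 ratio -3.47), and the gene called higher was Nefl, the light neurofilament (396 and 1613 counts, log2 ratio 2.40). Nes had 515 and 1003 counts, Lmna 21062 and 10678, and Des 239 and 66, and none of these was called. The summed level was 5258 and 4380 CPM, and the log2 ratios of these genes had a median of 0.54. Keratins summed to 26457 CPM in the library labelled intracranial, above this sum, and to 10.7 CPM in the library labelled extracranial.

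Most genes that anchor or bundle keratin filaments were lower in the same library as the keratins. The list of 17 genes for keratin anchors and binding proteins also held Krtdap, which is secreted, and Eppk1, which was not found by its symbol. Of the 16 genes found, 11 were called lower in the library labelled extracranial, Krtdap among them, and 0 higher. There were 4 not called, and Flg2 had too few counts. Over all genes, 5.41% were called lower and 1.78% higher. This list and those that follow were chosen with the contrast known, and many of their genes passed the minimum through their intracranial counts. The numbers called and the medians are therefore a description. Dsp, the desmosomal plakin that binds keratin tails, had 12790 and 1 counts, and the plakophilin gene Pkp1 had 10819 and 3. Krtdap, a secreted protein of differentiating keratinocytes, had 11287 and 1 counts. The cornified envelope plakins Ppl and Evpl had 3095 and 9 and 2604 and 10. Of the hemidesmosome genes, Col17a1 had 2155 and 21 counts and Itgb4 3252 and 229. Jup, which also serves adherens junctions, had 6596 and 633 and was 8.02-fold lower. Plec (8882 and 3402 counts), Dst (9251 and 9027) and Pkp2 (225 and 228), which are also made outside stratified epithelia, were not called, and neither was Tchh (78 and 23). Over the 15 genes above the floor, the median log2 ratio was -5.57.

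Of 17 transcription factors that act on keratin genes, 12 were called lower in the library labelled extracranial, 1 higher and 4 were not called, again beside 5.41% lower and 1.78% higher over all genes. Trp63, the master factor of stratified epithelia, had 1284 and 0 counts and was at least 268-fold lower. Klf5 had 1965 and 8 counts, Zfp750 846 and 1, Ehf 1733 and 4, Grhl3 887 and 3, Grhl1 926 and 16, Grhl2 331 and 0, and Ovol1 524 and 5. Elf3 had 179 and 2, Elf5 106 and 0, Foxn1 81 and 0, and Ovol2 37 and 0. Klf4, a factor of differentiating keratinocytes that other cells also make, had 9302 and 3558 counts and was not called, as was the case for Pitx1 (1532 and 486), Sox2 (377 and 134) and Gata3 (17 and 15). Hoxc13, a factor of hair keratin genes, was the gene called higher, with 0 and 25 counts. The median over all 17 was -5.48 on the log2 scale.

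**Figure D5:**
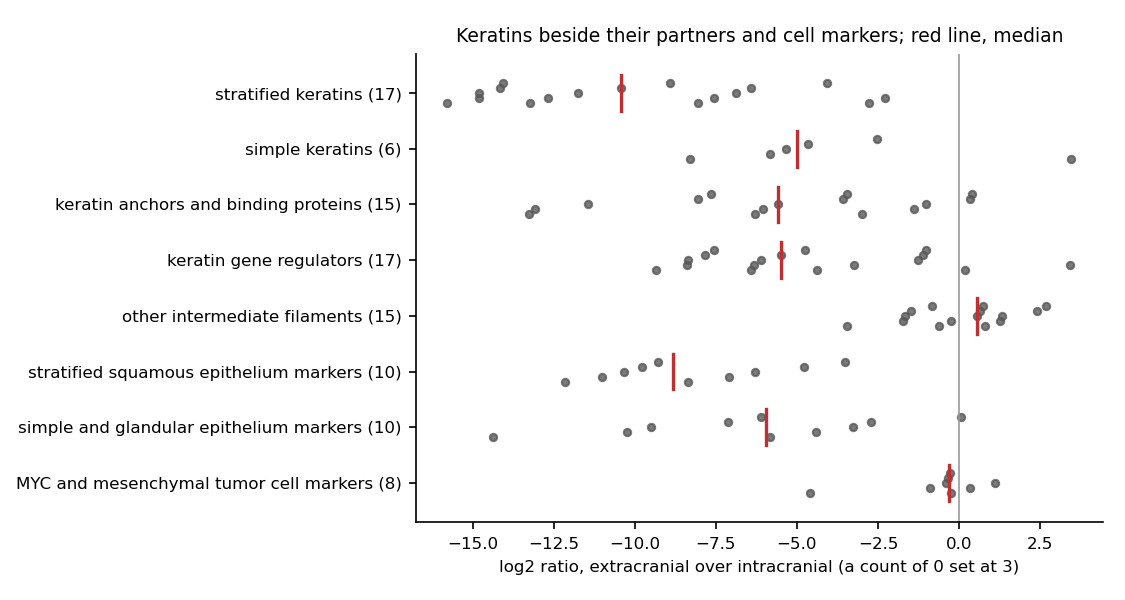
Log2 ratio of the library labelled extracranial over the library labelled intracranial for each gene above 3 counts in either library, with a count of 0 set at 3, in keratins, their partners and cell type markers; the number of genes is beside each name and red lines are medians. The medians are -10.42 for stratified keratins, -5.00 for simple keratins and 0.54 for other intermediate filaments.

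Markers of epithelial cells moved with the keratins. All 10 genes of a list for stratified squamous epithelium were called lower in the library labelled extracranial. For this and the lists below, the shares over all genes were 5.41% lower and 1.78% higher. The summed levels of these 10 genes were 1809 and 13.5 CPM, with Trp63, Dsg3 and Calml3 at 0 in the library labelled extracranial. Of 10 markers of simple and glandular epithelium, 8 were called lower, with sums of 2601 and 23.8 CPM and with Cldn3, Cldn4 and Muc5b at 0 in the library labelled extracranial. Each sum rests mainly on 1 gene: Muc5b held 2412 CPM (83812 counts) of the intracranial sum and Aqp5 19.8 CPM of the extracranial sum. Epcam, which marks most epithelia, had 938 and 1 counts and Cdh1 1906 and 26. Within these lists, the most extracranial counts were those of Aqp5, a water channel of glands (653 and 529), and of Dsc3, a desmosomal cadherin (2324 and 156). The lists overlap, so their calls are not separate: Trp63 and Elf3 were also among the regulators and Col17a1 among the anchors. Of 8 markers of MYC rhabdoid and mesenchymal tumor cells, 7 were not called, with sums of 5898 and 4469 CPM, and Rarres1 was called lower (983 and 31 counts). From single cells, the study describes Bmp4 as specific for intracranial MYC tumor cells and Postn as strong in extracranial ones. Here Bmp4 had 625 and 1029 counts and Postn 49555 and 20657, and neither was called. The share of tumor cells in each piece was not tested. How much of the keratin difference came from epithelial tissue in the piece taken, as against keratins made by tumor cells, was not tested.

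Lists for other cells that make keratins gave mixed values. Of 10 hair follicle markers, 3 were called lower, 1 higher and 6 not, beside 5.41% lower and 1.78% higher over all genes. The sums of these markers were 26.5 and 15.5 CPM. Foxn1, Hoxc13 and Gata3 of this list were also among the regulators, and Tchh among the anchors. Of 6 Merkel cell markers none was called, with sums of 16.1 and 15.1 CPM. Atoh1, their defining factor, had 0 counts in both libraries, while Krt20 had 2 and 17. Of the other Merkel markers, Piezo2 had 90 and 198 counts (log2 ratio 1.51, interval 1.15 to 1.89), Syp 55 and 57, Isl1 3 and 4, Sox2 377 and 134, and Chga 33 and 12. Of 5 mesothelium markers, Msln was called lower (8861 and 94 counts), Upk1b had 13 and 1 counts and was not called, Wt1 was at 0 in both, and Upk3b and Lrrn4 had 1 and 0 each. Of 6 enamel organ markers, 1 was above the floor, Klk4 with 2 and 8 counts. The part of these cells in the keratin counts was not tested.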

How the data were processed

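Poly(A) RNA of 2 mouse tumors, 1 per place, was sequenced by the authors as single reads of 72 cycles. Per the submitters' processing notes, reads were aligned to GRCm39 with STAR 2.7.9a and counted with featureCounts, and the deposited values are raw counts per Ensembl gene. The settings for strand and for reads with several matches are not given in the sources used here. Symbols, exon lengths and order came from GENCODE M21, which named 52135 of 55416 IDs (94.1%); the others held 0.694 and 0.950% of the counts. As that build is another one, no coordinates of counted genes are given.

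From the deposited counts, CPM on TMM library sizes (edgeR 4.0.16) was computed, with Clopper-Pearson 95% intervals and, for ratios, exact conditional binomial 95% intervals (scipy 1.17.1). A gene was called with 10 or more counts over both libraries and its whole interval beyond 4-fold. With 1 library per place there was no test. Both steps were checked on simulated data. DESeq2 1.42.0 size factors, other scalings, minimums and limits were tried as alternatives. The keratins, their groups and all lists (other intermediate filaments, anchors, regulators, markers) were chosen with earlier results of these data known. Every keratin above 3 counts in either library is named.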

Additional observations from a re-analysis of the deposited data

How the results depend on the processing

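No paired analysis was possible because each place had 1 library, and for the same reason no library could be left out. The type I share by protein length was not run, since the reference tables used here hold no proteins. The number of keratins called lower was 24 and ran from 20 (100 or more counts) to 26 (interval beyond 2-fold, or ratio beyond 4-fold without an interval) over the other scalings, minimums and limits; it was 26 with Gm5414 and Gm5478, an alternative chosen after seeing the data. Krt20 was called higher with the limit at 2-fold or without an interval. Of 112 values of 28 keratins under the other scalings, 111 kept direction and call, and Krt7 was called lower with total counts, which gave 5 simple keratins and 25 keratins called. The counts called lower in the 3 gene lists were the same under all 4 scalings, which moved log2 ratios by at most 0.04. The intracranial keratin sum was 26319 CPM with DESeq2 size factors, 26611 with total counts, 26109 with upper quartile scaling and 26818 with TMM without keratins. Keratins were 3.22 and 0.00129% of protein-coding counts, and 2.02% of intracranial counts without Krt6a, Krt6b and Krt16. The intracranial and extracranial type I shares were 54.3 and 36.7% on raw counts, 59.3 and 34.8% per coding length, and 54.4 and 50.3% per window of one gene; without Krt13 and Krt4 the intracranial share was 45.5%. The last setting removes the most abundant member of each type, and the cause of the other moves was not tested. Depth limits members under about 21 counts, which could not be called against 0.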
